A study of Mus musculus with 8 samples.

Results

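The miR-181 family was followed in kidneys of db/db mice and of control mice with Agilent miRNA microarrays, 8 in all, each labelled with Cy3 only. The family was taken by name as 5 miRNAs of the 1881 on the array. They are the 5p arms mmu-miR-181a-5p, mmu-miR-181b-5p, mmu-miR-181c-5p and mmu-miR-181d-5p, and the 3p arm mmu-miR-181a-1-3p, written below without the species prefix. The db/db group had 4 kidney samples from males aged 28 weeks of strain C57BLKS/J Iar -+Leprdb/+Leprdb. These mice are homozygous for the Leprdb allele, lack a working leptin receptor and become obese and diabetic. The control group had 4 kidney samples from males of the same age and strain background, labelled C57BLKS/J Iar -m+/m+ and, in the sample titles, dbm. These names leave unsettled whether a db allele was present in the controls. The labels do not say that each sample came from a separate mouse, so the spread that enters the p-values may be technical.

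A miRNA guides the Argonaute protein to mRNAs that pair with its seed, bases 2 to 8 from its 5′ end, and those mRNAs are then repressed. The miR-181 5p arms share a seed and are therefore expected to share many targets. The family is best known from lymphoid cells, where miR-181a sets how strongly developing T cells respond to antigen, and from endothelium, where miR-181b lowers importin-α3 and with it the nuclear entry of NF-κB. In whole kidney RNA, a change in the number of cells of a type and a change in miRNA per cell cannot be told apart.

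The mature sequences are shown because the shared seed and the few differences outside it define the family. They are from RefSeq (build GRCm38.p6), with the seed in capitals.
miR-181a-5p: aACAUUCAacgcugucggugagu
miR-181b-5p: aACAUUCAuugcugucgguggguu
miR-181c-5p: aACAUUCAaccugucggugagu
miR-181d-5p: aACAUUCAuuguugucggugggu
miR-181a-1-3p: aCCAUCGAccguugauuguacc
All 5 members were found in the RefSeq table. The seed of the 4 5p arms occurred in no other mature miRNA of that table. Counted as single-base changes, insertions or deletions, miR-181a-5p and miR-181c-5p differed by 1 edit and miR-181b-5p and miR-181d-5p by 2 edits, while miR-181a-5p differed from miR-181b-5p by 4. The 3p arm miR-181a-1-3p, from the opposite side of the hairpin, had another seed.

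The 6 genes lie in 3 clusters. On chromosome 1, Mir181a-1 and Mir181b-1 were separated by 97 bases, and on chromosome 2, Mir181a-2 and Mir181b-2 by 1019 bases. Both pairs encode miR-181a-5p and miR-181b-5p, at chr1:137966468-137966490 and chr1:137966650-137966673 and at chr2:38852741-38852763 and chr2:38853845-38853868 (GRCm38.p6, plus strand). The array therefore gives the sum over both loci for these 2 arms. The 3p arm miR-181a-1-3p comes from chromosome 1 alone, at chr1:137966508-137966529. The chromosome 2 pair lies within the spans of Nr6a1, an orphan nuclear receptor gene, and of the noncoding RNA gene Nr6a1os. The third cluster, on chromosome 8, holds Mir181c and Mir181d, separated by 85 bases. It encodes miR-181c-5p at chr8:84178924-84178945 and miR-181d-5p at chr8:84178759-84178781 (minus strand). Its nearest protein-coding gene was Nanos3, 2164 bases from Mir181d. The chromosome 1 and chromosome 8 hairpins overlapped no gene of another kind in the RefSeq gene table.

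Each member was read by 2 probes of different length, complementary to the 3′ part of the miRNA. The probes of the 5p arms are shown because the 3′ parts they read differ by little between members. Probes are written 5′ to 3′, so that the first base pairs near the 3′ end of the miRNA. Capitals mark bases that do not pair with the closest relative when the probe is placed without gaps. That relative is miR-181c-5p for miR-181a-5p, miR-181d-5p for miR-181b-5p, and the reverse.
miR-181a-5p, 13 bases: actcaccgacagC
miR-181a-5p, 14 bases: actcaccgacagCG
miR-181b-5p, 13 bases: acccaccgacaGc
miR-181b-5p, 14 bases: acccaccgacaGca
miR-181c-5p, 18 bases: actcaccgacagGTtGAa
miR-181c-5p, 19 bases: actcaccgacagGTtGAaT
miR-181d-5p, 16 bases: acccaccgacaAcaat
miR-181d-5p, 17 bases: acccaccgacaAcaatg
Substitutions are given with the probe's base first, its position from the 5′ end of the probe, and then the base that would pair with the other miRNA. The 13-base probe of miR-181a-5p differed from a perfect match to miR-181b-5p by T3C alone and to miR-181c-5p by C13G alone. The 13-base probe of miR-181b-5p differed from miR-181a-5p by C3T alone, and both probes of miR-181b-5p differed from miR-181d-5p by G12A alone. Both probes of miR-181d-5p differed from miR-181b-5p by A12G alone. The probes of miR-181c-5p had 4 or 5 mismatches to miR-181a-5p when placed without gaps, and at least 6 to the other 5p arms. The sequences of miR-181a-5p and miR-181c-5p differ by 1 edit. With 1 base of miR-181a-5p left unpaired, every base of the miR-181c-5p probes can therefore pair with it. How much of a signal came from a relative was not tested, and signals of different members were not ranked against each other because their probes differ.

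The arrays shared a single slide and a single scan. The db/db samples were on row 2 of the slide and the controls on row 1, so genotype cannot be told apart from the row of the slide. The number of miRNAs detected was 289 to 358 on db/db arrays and 305 to 352 on control arrays, db/db replicate 2 having the fewest. Of the tubule-epithelium marker miRNAs, all 8 were detected on every array. Of the 2 neuronal markers, miR-9-5p was detected on all 4 db/db and all 4 control arrays, and miR-124-3p on none.

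Values below are log2 of the spot signal, after each array was scaled by its 75th percentile, taken over the 269 miRNAs that every array detected. A change is db/db minus control, and it was tested with limma over the 316 miRNAs that every array of 1 or both groups detected. A miRNA was called at an adjusted p under 0.05 (Benjamini-Hochberg over all 316, 2-sided). The 4 5p arms were among the tested miRNAs. The 3p arm miR-181a-1-3p was not.

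Kidneys of db/db mice had more miR-181b-5p and miR-181a-5p than control kidneys, by 1.24-fold and 1.18-fold. The chromosome 8 arms miR-181c-5p and miR-181d-5p did not pass the test, and their estimates lay below 0. Of the 4 tested members, 2 were called higher and none lower. Among all 316 tested miRNAs, 41.8% were called, 24.4% higher and 17.4% lower. Without db/db replicate 2, where 333 miRNAs passed the filter and were tested, that balance turned. Then 69 were called higher and 84 lower, against 77 higher and 55 lower of the 316 tested with it. The median change of the 4 tested members was 0.08, against -0.02 over all tested miRNAs.

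mmu-miR-181b-5p had log2 signals of 5.83, 5.94, 5.89 and 6.09 in db/db replicates 1 to 4, and of 5.72, 5.59, 5.58 and 5.62 in control replicates 1 to 4. Every db/db sample lay above every control sample, with db/db replicate 4 the highest. The means were 5.94 ± 0.11 in db/db kidneys and 5.63 ± 0.06 in control kidneys (SD, n = 4 each). The change was 0.31 ± 0.06 (SE), with a 95% confidence interval of 0.16 to 0.45 (limma, Benjamini-Hochberg adjusted p = 0.00565). It ranked 47 of 316 when changes were ordered from the highest. With normexp background correction, which adds an offset of 50 to every spot, the change was 0.09 and not past the threshold (limma, adjusted p = 0.141). The call was also lost with scaling to the 75th percentile over all miRNAs (change 0.32, adjusted p = 0.679) and with no filter on dim miRNAs (change 0.31, adjusted p = 0.0528).

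mmu-miR-181a-5p, the arm best known from thymocytes, had log2 signals of 7.52, 7.45, 7.46 and 7.62 in db/db replicates 1 to 4, and of 7.39, 7.17, 7.27 and 7.28 in control replicates 1 to 4. The groups did not overlap, although the lowest db/db sample, replicate 2, was close to the highest control sample, replicate 1. Among all tested miRNAs, 41.5% had groups that did not overlap. The means of miR-181a-5p were 7.51 ± 0.08 in db/db kidneys and 7.28 ± 0.09 in control kidneys (SD, n = 4 each). The change was 0.23 ± 0.06 (SE), with a 95% confidence interval of 0.09 to 0.38 (limma, Benjamini-Hochberg adjusted p = 0.0168), and ranked 65 of 316. It was smaller with quantile normalization, 0.13, and with normexp, 0.14, and was called under both (limma, adjusted p = 0.0340 and 0.0272). It was not called with the 75th percentile over all miRNAs (change 0.25, adjusted p = 0.842) or with no filter on dim miRNAs (change 0.23, adjusted p = 0.122).

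mmu-miR-181c-5p, known from rat heart as a nuclear-encoded miRNA found in mitochondria, had log2 signals of 4.76, 4.75, 4.62 and 4.66 in db/db kidneys and of 4.86, 4.71, 4.70 and 4.85 in control kidneys. The groups overlapped, and 2 db/db samples lay above the 2 lower controls. Its means were 4.70 ± 0.07 in db/db and 4.78 ± 0.09 in control kidneys (SD, n = 4 each). The change of -0.08 ± 0.06 (SE) missed the threshold (limma, Benjamini-Hochberg adjusted p = 0.278). Its 95% confidence interval ran from -0.21 to 0.05, or from 0.863-fold to 1.04-fold. The direction depended on the scaling. It was also below 0 with quantile normalization, at -0.12, and in the authors' table of values, at -0.13. With no scaling the change was 0.05 and with scaling to the labelling spike-ins 0.09, settings in which the median of all tested miRNAs was 0.10 and 0.15. Relative to that median the change was -0.06 in each. Read from the brightest probe of each miRNA, the change was -0.15 and was called (limma, adjusted p = 0.0216).

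mmu-miR-181d-5p, the other arm of the chromosome 8 cluster and a known repressor of the DNA repair gene MGMT in human glioma cells, had log2 signals of 3.53, 3.66, 3.57 and 3.54 in db/db kidneys. In control kidneys they were 3.63, 3.74, 3.51 and 3.94. The groups overlapped, and the controls were spread more widely, with control replicate 4 the highest of all 8 samples. The means were 3.57 ± 0.06 in db/db and 3.70 ± 0.18 in control kidneys (SD, n = 4 each). The change of -0.13 ± 0.09 (SE) missed the threshold (limma, Benjamini-Hochberg adjusted p = 0.275), and its 95% confidence interval was -0.34 to 0.08. Without control replicate 4 it was -0.05. With spike-in scaling the change was 0.05, which is -0.11 once that setting's median over the tested miRNAs is taken off.

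mmu-miR-181a-1-3p, the strand opposite miR-181a-5p in the Mir181a-1 hairpin and long known as miR-213, was detected on 2 db/db arrays, replicates 1 and 4, and on 1 control array, replicate 4. Its log2 signals were 3.48, 3.56, 3.35 and 3.46 in db/db replicates 1 to 4, against 3.24, 3.26, 3.35 and 3.28 in control replicates 1 to 4. Control replicate 3 reached the level of db/db replicate 3, and the other db/db samples lay above all controls. The means were 3.46 ± 0.09 in db/db and 3.28 ± 0.05 in control kidneys (SD, n = 4 each), a difference of 0.18. It was outside the 316 tested miRNAs. With all miRNAs detected on at least 1 array tested, it had an adjusted p of 0.0284, and with no filter on dim miRNAs 0.146 (limma, 390 and 1881 miRNAs tested). The difference was -0.06 with normexp, -0.0029 with quantile normalization and 0.09 without db/db replicate 2. In the authors' deposited table of values the difference was 1.08, where, as in the gene total signal of the scanner, an undetected miRNA holds a fill value. The remaining 3p arms on the array, miR-181a-2-3p, miR-181b-1-3p, miR-181b-2-3p, miR-181c-3p and miR-181d-3p, were detected on none of the 8 arrays, and each lay at the floor of 1.48.

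**Figure D1:**
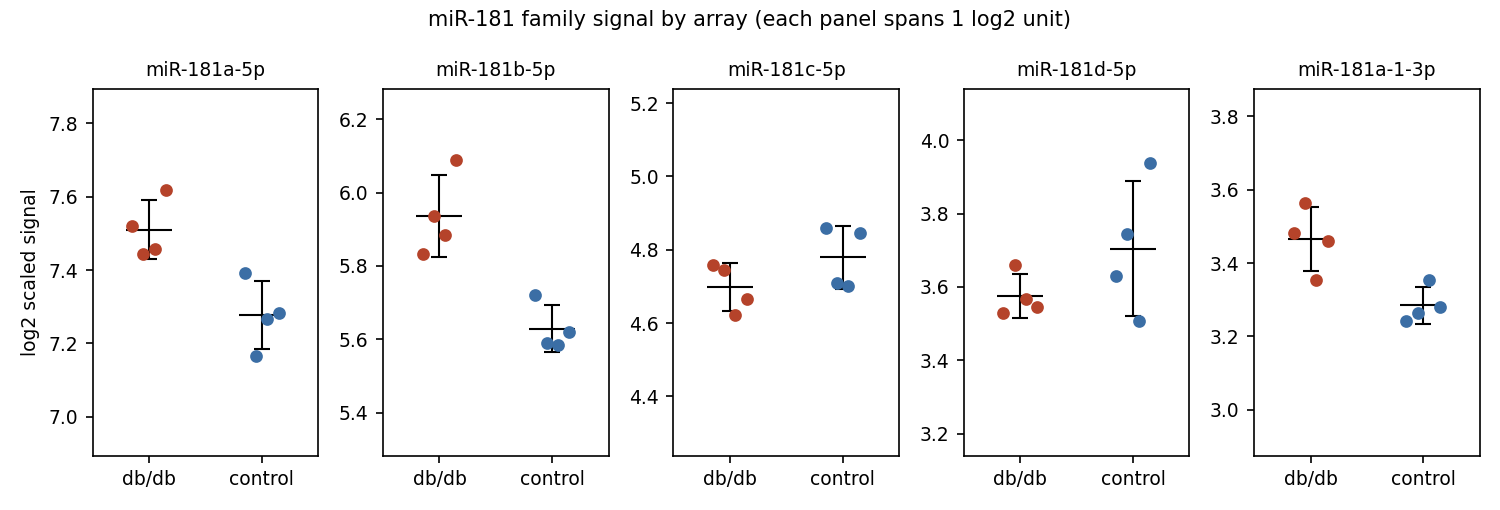
Log2 scaled signal of each miR-181 member on the 4 db/db and the 4 control arrays. Points are arrays, horizontal marks are group means and bars are SD; each panel spans 1 log2 unit. The groups are apart for miR-181a-5p and miR-181b-5p and overlap for miR-181c-5p, miR-181d-5p and miR-181a-1-3p.

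**Figure D2:**
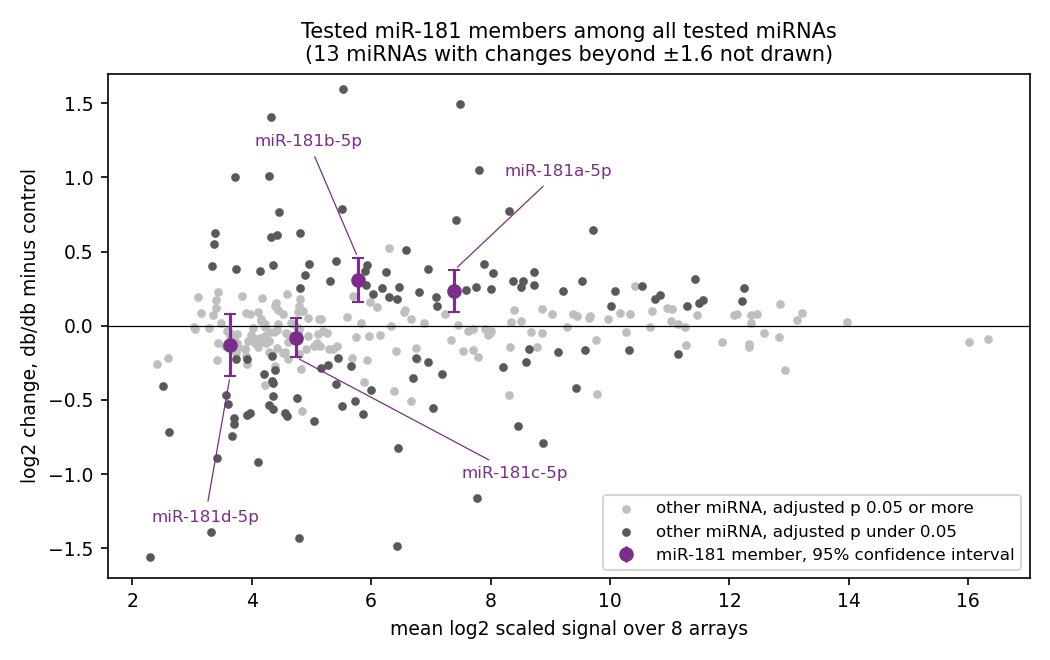
Change (db/db minus control, log2) against mean log2 scaled signal for the tested miRNAs. The 4 tested miR-181 members are shown with their 95% confidence intervals, which lie above 0 for miR-181a-5p (0.09 to 0.38) and miR-181b-5p (0.16 to 0.45) and span 0 for miR-181c-5p and miR-181d-5p; 13 miRNAs with changes beyond 1.6 in either direction are not drawn.

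Members differed in how far they read above background. Each member had 30 spots per array, and none was saturated. All 30 spots of miR-181a-5p and of miR-181b-5p were well above background on every array. For miR-181c-5p this held for 15 to 24 spots in db/db and 17 to 29 in control arrays, and for miR-181d-5p for 1 to 8 in db/db and 2 to 14 in control arrays. For miR-181a-1-3p at most 1 spot per array was well above background. In multiples of the mean signal of the negative control spots, miR-181a-5p read 29.8 to 44.3 in db/db and 20.02 to 30.03 in control arrays. miR-181b-5p read 10.5 to 15.4 in db/db and 6.72 to 9.48 in control arrays. The multiples were 4.58 to 5.72 in db/db and 3.65 to 5.54 in control arrays for miR-181c-5p, and 2.16 to 2.63 in db/db and 1.87 to 2.96 in control arrays for miR-181d-5p. The SE of the change was 0.09 for miR-181d-5p and 0.06 for each of the other tested members.

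The negative control spots themselves averaged 4.43 to 5.85 scaled units on db/db and 5.16 to 7.18 on control arrays. With each array's negative control mean subtracted, an alternative chosen after seeing the data, miR-181b-5p changed by 0.36 and miR-181a-5p by 0.24, and both were called (limma, adjusted p = 0.00708 and 0.0206). The changes were then -0.05 for miR-181c-5p and -0.06 for miR-181d-5p, and the difference for miR-181a-1-3p was 0.65.

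Whether members changed unequally was asked with the log2 ratio of 2 members within an array, which does not move with the scaling of the array. A total of 7 pairs was compared with a 2-sided exact permutation test, in which 8 arrays give 70 ways to form 2 groups of 4 and a smallest p of 0.0286. Only the difference of a ratio between the groups is read, since its level depends on the probes. Ratios of a miR-181a or miR-181b 5p arm to a chromosome 8 arm were higher in db/db kidneys in all 4 such pairs. The groups did not overlap in any of them. Among single tested miRNAs 41.5% had groups that did not overlap, and the share among ratios of other miRNAs was not counted. Each of the 4 ratios had p = 0.0286 and an adjusted p of 0.05 over the 7 pairs (exact permutation test, Benjamini-Hochberg). That adjusted p is at the threshold and not under it. With normexp the adjusted p was 0.04 for each, with smaller differences of 0.17 to 0.24. Each ratio's own p was still 0.0286 (exact permutation test). The adjusted p fell only because miR-181a-5p over miR-181a-1-3p also reached the smallest p, since the adjustment depends on how many pairs do. In the gene total signal, in the authors' table of values and with the brightest probe, miR-181a-5p over miR-181d-5p did not reach the smallest p (exact permutation p = 0.0857, 0.0857 and 0.0571, adjusted p = 0.15, 0.15 and 0.1). The other 3 ratios had an adjusted p of 0.0667 in each of those settings. Their own p was 0.0286 there too (exact permutation test), and the adjusted p was higher because fewer pairs reached the smallest p. The 7 ratios are built from 5 members and are not independent.

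The log2 ratio of miR-181b-5p to miR-181c-5p was 1.07, 1.19, 1.26 and 1.43 in db/db replicates 1 to 4, and 0.86, 0.88, 0.88 and 0.77 in control replicates 1 to 4. The controls lay close together, and the lowest db/db ratio, in replicate 1, was above all of them. The means were 1.24 ± 0.15 in db/db and 0.85 ± 0.05 in control kidneys (SD, n = 4 each), a difference of 0.39 ± 0.08 (SE). For miR-181b-5p over miR-181d-5p the difference was 0.44 ± 0.12 (SE), and for miR-181a-5p over miR-181c-5p 0.31 ± 0.06 (SE). For miR-181a-5p over miR-181d-5p it was 0.36 ± 0.13 (SE), with db/db ratios of 3.78 to 4.07 and control ratios of 3.34 to 3.76 that nearly met.

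Members of the same cluster were not told apart by this test. The log2 ratio of miR-181a-5p to miR-181b-5p was 1.57 ± 0.08 in db/db and 1.65 ± 0.05 in control kidneys (SD, n = 4 each), a difference of -0.07 ± 0.05 (SE; exact permutation p = 0.229, adjusted p = 0.32). For miR-181c-5p over miR-181d-5p the difference was 0.05 ± 0.09 (SE; exact permutation p = 0.543). For miR-181a-5p over the 3p arm miR-181a-1-3p it was likewise 0.05 ± 0.08 (SE; exact permutation p = 0.543), with the 3p arm near the limit of detection. That last difference was -0.40 once the negative control mean was subtracted and 0.21 with normexp.

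**Figure D3:**
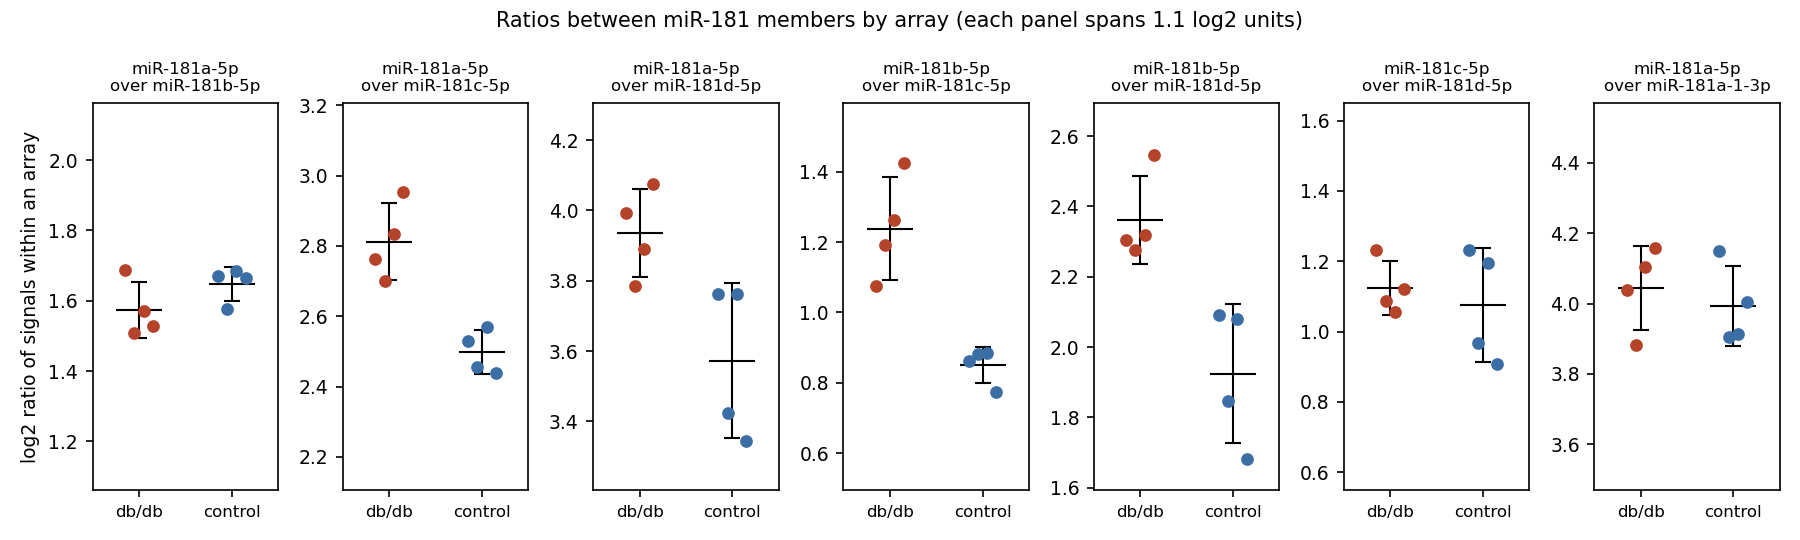
Log2 ratio of the signals of 2 miR-181 members within each array, for 7 pairs; points are the 4 db/db and 4 control arrays, marks are group means and bars are SD. The groups are apart in the 4 panels that set miR-181a-5p or miR-181b-5p over miR-181c-5p or miR-181d-5p, and overlap in the other 3.

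The 2 probes of a member were also read apart. They share the RNA and are not replicates, so their values are a description. Both probes of miR-181b-5p had no overlap between the groups, with changes of 0.35 ± 0.07 (SE) at 13 bases and 0.28 ± 0.06 (SE) at 14 bases. Among tested miRNAs 41.5% had groups that did not overlap, and the share among single probes was not counted. For miR-181a-5p the changes were 0.21 ± 0.07 (SE) at 13 bases and 0.24 ± 0.06 (SE) at 14 bases. The groups overlapped at the shorter probe of miR-181a-5p, where db/db replicates 2 and 3, at 6.49 and 6.51, lay below control replicate 1, at 6.53. Both probes of miR-181c-5p gave -0.08, and those of miR-181d-5p gave -0.24 ± 0.09 (SE) at 16 bases and -0.09 ± 0.11 (SE) at 17 bases. For miR-181a-1-3p the 17-base probe gave 0.25 ± 0.06 (SE) with no overlap and the 18-base probe 0.13 ± 0.07 (SE) with overlap. No member had probes of opposite sign.

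**Figure D4:**
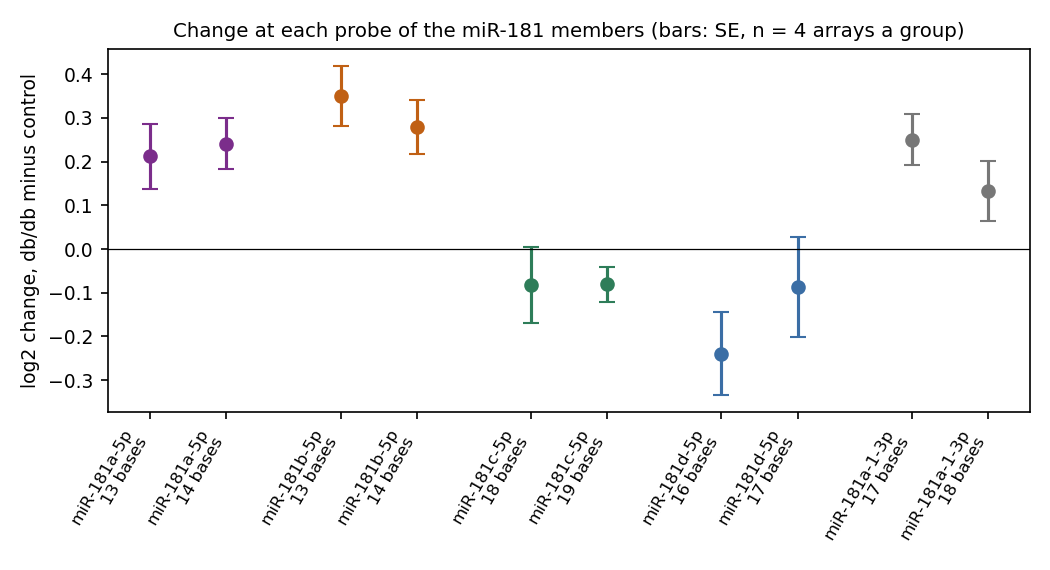
Change (db/db minus control, log2) at each probe of the 5 miR-181 members, labelled with the probe's length in bases; bars are the SE of the difference over 4 arrays a group. Both probes lie above 0 for miR-181a-5p, miR-181b-5p and miR-181a-1-3p and below 0 for miR-181c-5p and miR-181d-5p.

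Markers of some cell types also differed between the groups. Among all tested miRNAs, 17.4% were called lower and 24.4% higher. Of 7 leukocyte miRNAs, all tested, 6 were called lower and none higher, with a median change of -1.16. Their summed signal was 8.22 to 8.68 on the log2 scale in db/db and 9.37 to 9.72 in control kidneys, and none of the 7 was undetected throughout. Among them miR-150-5p, typical of mature lymphocytes and detected on 1 db/db and 4 control arrays, had a change of -1.39 ± 0.16 (SE; limma, Benjamini-Hochberg adjusted p = 0.000424), while miR-181a-5p and miR-181b-5p were higher. Of 8 tubule-epithelium miRNAs 5 were called higher and none lower, with a summed signal of 14.13 to 14.19 in db/db and 13.96 to 14.05 in control kidneys. Neither of the 2 endothelial miRNAs passed, and their summed signal was 11.83 to 11.89 in db/db and 11.93 to 12.03 in control kidneys. None of the 2 erythroid miRNAs, the 2 smooth-muscle and pericyte miRNAs and the 1 neuronal miRNA tested was called. The only hepatocyte marker listed, miR-122-5p, passed detection on 4 db/db and 0 control arrays. The part of cell composition in the miR-181 values was not tested.

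For each tested member the 3 miRNAs with the most similar profile were named by the root mean square difference of mean-centred log2 signals over the 8 arrays, out of 312 miRNAs outside the family. This likeness takes in the difference between the groups. Closest to miR-181a-5p were miR-190a-5p, miR-27b-3p and miR-331-3p, at 0.06, 0.06 and 0.07 log2 units, against a median of 0.21 over all 312. Of these, miR-27b-3p and miR-331-3p were called higher, with changes of 0.23 and 0.20, and miR-190a-5p, with 0.20, was not (limma, Benjamini-Hochberg adjusted p = 0.0567). Closest to miR-181b-5p were miR-15b-5p, miR-23b-3p and miR-301a-3p, at 0.07, 0.08 and 0.08, against a median of 0.24, and all 3 were called higher, by 0.24, 0.32 and 0.24. miR-181c-5p was closest to miR-143-3p, miR-93-5p and miR-126a-5p, at 0.04, 0.05 and 0.06 against a median of 0.15, none of them called. miR-181d-5p was closest to miR-497a-5p, miR-125b-5p and miR-99a-5p, at 0.08, 0.09 and 0.09 against a median of 0.19. Of these only miR-125b-5p was called, as lower, with a change of -0.17.

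**Figure D5:**
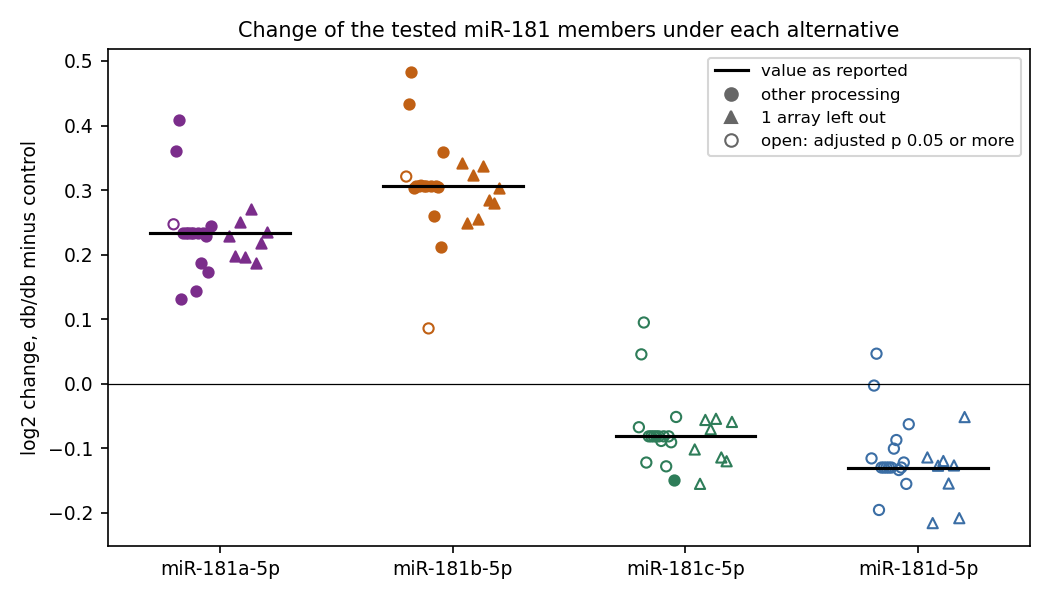
Change (db/db minus control, log2) of the 4 tested miR-181 members under each other processing (circles) and with 1 array left out (triangles); filled symbols have an adjusted p under 0.05 and the bar is the value as reported. With 1 array left out, miR-181a-5p ranged from 0.19 to 0.27 and miR-181b-5p from 0.25 to 0.34, all called.

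With each array left out in turn, miR-181a-5p kept a change of 0.19 to 0.27 and miR-181b-5p of 0.25 to 0.34, and both were called in all 8 fits (limma, highest adjusted p = 0.0464 and 0.0315). miR-181c-5p ranged from -0.15 to -0.05 and miR-181d-5p from -0.22 to -0.05, and neither was called in any of the 8.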

How the data were processed

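The authors deposited scanner files with an intensity per spot. Per the file headers, they were made by Agilent Feature Extraction, version 12.0.3.1. The processed signal in them is the spot's mean signal minus a fitted spatial surface. Their detection, saturation and outlier flags are 0 or 1. The authors also deposited a linear ratio per miRNA and array, in which each miRNA and each array had been divided by a factor not given in the sources used here; it was used only as an alternative.

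Non-outlier spots of a probe were averaged, then the probes of a miRNA. Each array was scaled by its 75th percentile over miRNAs that every array detected. A floor of 2.80, or 1.48 on the log2 scale, was then set, from the dimmest detected miRNA of each array (median over arrays). limma 3.58.1 in R 4.3.3 (lmFit, eBayes) tested the 316 miRNAs that every array of 1 or both groups detected. Ratios used exact permutation tests in scipy 1.17.1. The fit and the test were tested on simulated data. The number of arrays limits precision.

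The members and lists were chosen with earlier results of these data known. The miRNAs named are the members, the other miR-181 arms, others with the same seed, the 3 closest profiles to each tested member and up to 2 per marker list. Alternatives covered scaling, background, floor, filter, outlier spots, probes, the limma settings, a replicate block and each array left out.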

Additional observations from a re-analysis of the deposited data

Results flagged for a closer look

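Among 24 sets of 4 arrays screened for an array far from the others (5 members and 7 ratios in each group), 1 stood out. The log2 ratio of miR-181b-5p to miR-181d-5p in db/db kidneys was 2.55 in replicate 4 and 2.28 to 2.32 in the other 3, a gap of 0.839 of the whole range, above Dixon's critical value for 4 values. Chance flags about 1 in 20 such sets. Without db/db replicate 4 the difference of this ratio between db/db and control kidneys was 0.38, against 0.44 with it.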

How the results depend on the processing

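Each change was recomputed under 24 alternatives. miR-181a-5p was called in 22, with changes of 0.13 to 0.41. Its call was lost with the 75th percentile over all miRNAs (0.25, limma adjusted p = 0.842), a setting in which 34 miRNAs were called in place of 132, and with no filter on dim miRNAs (0.23, adjusted p = 0.122), where 1881 were tested. miR-181b-5p lost its call in the same settings (0.32, adjusted p = 0.679, and 0.31, adjusted p = 0.0528) and under normexp (0.0857). miR-181c-5p turned to 0.0455 without scaling and to 0.0949 under spike-in scaling, and was called lower, at -0.15, with the brightest probe of each miRNA (adjusted p = 0.0216), where the median of all tested miRNAs was -0.07. miR-181d-5p was 0.0466 with spike-in scaling. The cause of these shifts was not tested. For miR-181a-1-3p the difference was 0.31 without scaling, 0.36 under spike-in scaling, -0.0029 with quantile normalization, -0.0625 under normexp, 1.13 in the gene total signal, 1.08 in the authors' table of values, 0.0411 with the brightest probe, 0.65 with the negative controls subtracted and 0.0902 to 0.22 with 1 array left out, the lowest without db/db replicate 2. Its adjusted p was 0.0284 with all miRNAs detected on at least 1 array tested and 0.146 with no filter (limma).

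The share of higher among called miRNAs was 58.3%. It was 78.1% without scaling, 83.1% under spike-in scaling, 46.9% with quantile normalization and 40.9% with the brightest probe. In the authors' table of values it was 51.4%, and under normexp 48.8%. With no filter on dim miRNAs it was 72.2%, and with the 75th percentile over all miRNAs 67.6%. Without db/db replicate 2 it was 45.1%, with 84 of 333 tested miRNAs called lower, against 55 of 316 with all arrays. Under normexp the 4 ratios across clusters had adjusted p = 0.04 (exact permutation test), with differences of 0.23, 0.24, 0.17 and 0.19 for miR-181a-5p over miR-181c-5p and miR-181d-5p and miR-181b-5p over the same arms. Under it miR-181a-5p over miR-181a-1-3p was 0.21 (adjusted p = 0.04) and miR-181a-5p over miR-181b-5p turned to 0.0586. The ratio to miR-181a-1-3p also reached the smallest p, which lowered the adjusted p of the 4. Their own p stayed at 0.0286 (exact permutation test). In the gene total signal, the authors' table of values and the brightest probe, the adjusted p of the 4 ratios was 0.0667, except for miR-181a-5p over miR-181d-5p, at 0.15, 0.15 and 0.1. The ratios at 0.0667 still had an own p of 0.0286 (exact permutation test). The ratio to miR-181a-1-3p turned to -0.90 in both the gene total signal and the authors' table of values and to -0.40 with the negative controls subtracted. miR-181c-5p over miR-181d-5p ranged from -0.0075, without control replicate 4, to 0.10 with 1 array left out.

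Replicate numbers in the titles matched slide columns. Same-numbered arrays deviated with correlations of -0.43 to 0.41, and 1 of 4 db/db arrays was closest to its own number, so a shared number, or slide column, was not taken as a pairing. With the replicate block 144 miRNAs were called, and miR-181a-5p and miR-181b-5p kept their calls (limma, adjusted p = 0.0204 and 0.0245).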
